A study of Saccharomyces cerevisiae with 14 samples.

Results

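The 160 sequences described here are variants of human cofilin-1 with Gly at position 4 and Val, Ile, Leu or Met at position 5. They were picked from the 16000 variants of a library by a rule on sequence. No measured value entered the rule, but it was set with earlier results of these data known. Counts of members set against library shares are therefore not free of that knowledge. The 160 sequences form 80 pairs that differ only at position 3, which holds Ser in 80 of them and Thr in the other 80. Each residue of position 2 occurs in 8 members and each residue of position 5 in 40. A variant is written by its residues at positions 2 to 5, so that ASGV is the human tail, RSGV that of budding yeast and ASGM that of Arabidopsis. All libraries came from the Saccharomyces cerevisiae strain TH_5610 (TeTO7-COF1), in which doxycycline (DOX) shuts off the yeast cofilin gene COF1 (YLL050C). Every cell also carried a plasmid with a His6-tagged cofilin-1 variant under the GPD promoter and another with full-length FLAG-LIMK1 under the galactose-inducible GAL1 promoter, so the groups share one host genotype. Each of the 3 screens gave 8 libraries, beginning with cells in glucose without DOX (T-1) and the same culture after growth in raffinose with DOX (T0). That culture was then divided between glucose with DOX, where LIMK1 is not induced, and raffinose and galactose with DOX, where it is, and each was sampled after successive rounds of growth at T1, T2 and T3. The screens were grown from frozen portions of a single transformed pool, so p-values rest on repeated growths of that pool. The tests also pool the estimate of spread over all variants. An SE can therefore be smaller than a variant's own spread between the screens.

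Cofilin severs and depolymerizes actin filaments, and its disordered N-terminal tail takes part in binding actin. LIM kinases phosphorylate Ser3 of this tail and thereby inactivate cofilin, and they hardly accept Thr in its place. Budding yeast has no LIM kinase of its own.

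The library oligos of the human tail and its Thr3 form are shown first, because the main contrast in galactose lay between Ser3 and Thr3. Capitals mark the bases that encode positions 2 to 5, and the atg before them encodes Met1 of cofilin-1, which follows the end of the His6 tag.
ASGV: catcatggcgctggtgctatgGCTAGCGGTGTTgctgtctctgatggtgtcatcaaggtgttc
ATGV: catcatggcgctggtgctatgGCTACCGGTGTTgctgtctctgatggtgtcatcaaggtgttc
All members encode Gly4 as GGT, Ser3 as AGC and Thr3 as ACC. Position 5 was encoded by GTT, CTG, ATC or ATG, and the human and Arabidopsis tails are shown with this codon in capitals, since they differ only there.
ASGV: gctagcggtGTT
ASGM: gctagcggtATG
The Phe2 and Leu5 pair had the largest difference between Thr3 and Ser3 in glucose and is given with the codon of position 3 in capitals.
FSGL: ttcAGCggtctg
FTGL: ttcACCggtctg
The 3 Thr3 members that were called as losing reads in galactose relative to glucose all had Gly2, and the codon of position 2 is in capitals for them and for the Ser3 members with the lowest and the highest LIMK1 effect.
GTGV: GGTaccggtgtt
GTGI: GGTaccggtatc
GTGL: GGTaccggtctg
DSGI: GACagcggtatc
CSGM: TGCagcggtatg

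Between 7185497 and 61265998 reads were counted per library (median 23863730). No member had 0 reads in any library, and the lowest count was 4. Levels are given as RPM, the reads of a variant scaled to a common library total of 1e+06 reads, and changes as log2 ratios of these levels. A level is relative to the pool, and a variant gains reads when the others lose them.

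The members made up 0.931%, 1.46% and 1.44% of all reads at T-1 in screens 1, 2 and 3. In glucose their share went from 0.819% at T0 (SD 0.120, n = 3 screens) to 3.24% at T1 (SD 0.378), 5.63% at T2 (SD 0.387) and 8.10% at T3 (SD 0.200). In galactose it was 3.71% at T1 (SD 0.235), 5.23% at T2 (SD 0.683) and 6.10% at T3 (SD 0.760). The Ser3 and Thr3 members went separate ways in galactose. The 80 Ser3 members held 1.82%, 1.82% and 1.74% of reads there at T1 and 0.381%, 0.418% and 0.445% at T3. The 80 Thr3 members held 1.90%, 2.13% and 1.74% at T1 and 6.28%, 5.97% and 4.79% at T3. The ranges of both groups at T1 and T3 did not overlap, and moved in opposite directions. In glucose at T3 the shares were 3.84% for Ser3 (SD 0.260) and 4.26% for Thr3 (SD 0.428).

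While COF1 was being shut off, from T-1 to T0, most members lost reads before they gained any. By edgeR, with p-values adjusted over all 16000 variants, 117 of 160 members fell (33.1% of the library did) and 2 rose (24.2% of the library). The median log2 change was −0.73 among members and −0.10 over the library. DSGM had 37.5, 33.4 and 35.8 RPM at T-1 in the 3 screens and 3.46, 10.6 and 3.53 RPM at T0. FSGL had 39.9, 35.5 and 33.8 RPM at T-1 and 4.46, 13.0 and 3.70 RPM at T0. The levels at the 2 time points did not overlap for either variant. The log2 changes were −2.77 for DSGM (SE 0.37, adjusted p = 1.1e-12, edgeR) and −2.57 for FSGL (SE 0.35, adjusted p = 7.2e-12). The members that rose were NTGI (0.51, SE 0.16, adjusted p = 0.0046) and RSGL (0.50, SE 0.21, adjusted p = 0.031), of which NTGI was singled out after its values were seen. Leaving out screen 1, 2 or 3 in turn gave 0, 1 and 4 members that rose.

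In glucose the members gained reads in both of the first intervals, while the library as a whole lost them. From T0 to T1, 153 of 160 members rose by edgeR (28.4% of the library did) and 1 fell (63% of the library). The median log2 change was 1.93 among members and −2.30 over the library. From T1 to T2, 147 members rose (12.7% of the library) and 1 fell (71.8% of the library), with medians of 0.81 among members and −1.70 over the library. The member that fell first was FSGL (−1.67, SE 0.51, adjusted p = 0.0011) and the one that fell next was WTGL (−0.27, SE 0.10, adjusted p = 0.014), which was singled out after its values were seen, and with TMM scaling neither interval had a member that fell. From T2 to T3 edgeR called 0 members and 0% of the library. Even so, 117 members passed an unadjusted p of 0.05 (library share not given here) and 121 gained reads in every screen. Their median log2 change there was 0.47, compared with −0.12 over the library, and without screen 2 edgeR called 76 members above 0.

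From T0 to T2 in glucose, the interval taken as the measure of growth without LIMK1, 154 of 160 members rose, compared with 20.9% of the library. None fell, whether the p-values were adjusted or taken at 0.05 unadjusted, compared with 70% of the library. DESeq2 gave none below 0 either, but its size factors moved the median of all variants up by 3.99. With them FSGL, the lowest member, was at 2.68, so that count cannot show whether members fell. Without screen 1 or without screen 3, 1 member was called below 0. The median log2 change was 2.80 among members and −4.15 over the library. Of the 160, 157 gained reads in every screen (library share not given here) and 157 were among the 4000 highest variants. The Ser3 members (76 of 80 rose, median 2.82) and the Thr3 members (78 of 80, median 2.76) were alike in these counts.

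The natural tails lay in the upper part of the library. ASGV, the human tail, had 65.0, 61.2 and 42.9 RPM at T0 and 483, 609 and 430 RPM at T2. RSGV, the yeast tail, had 42.1, 48.5 and 50.2 RPM at T0 and 434, 586 and 512 RPM at T2. ASGM, the Arabidopsis tail, had 74.6, 91.3 and 81.8 RPM at T0 and 616, 558 and 724 RPM at T2. All T2 levels of the 3 tails were above all of their T0 levels. The log2 changes were 3.18 for ASGV (SE 0.24, adjusted p = 8.9e-39, edgeR), 3.44 for RSGV (SE 0.24, adjusted p = 5.2e-44) and 2.93 for ASGM (SE 0.23, adjusted p = 2.2e-35). Among the 160 members these stood at ranks 33, 13 and 60, and among all 16000 variants at ranks 70, 25 and 234. Their Thr3 forms had log2 changes of 2.96 for ATGV (SE 0.24), 3.00 for RTGV (SE 0.23) and 2.85 for ATGM.

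The 4 largest changes came from unlike residues at position 2. FTGL, rank 1 of the 16000, had 11.5, 23.9 and 31.7 RPM at T0 and 214, 349 and 349 RPM at T2 (log2 change 3.85, SE 0.28, adjusted p = 1.9e-41, edgeR). ESGM had 32.4, 39.8 and 42.0 RPM at T0 and 452, 445 and 484 RPM at T2 (3.60, SE 0.24). NTGL had 8.46, 27.8 and 12.2 RPM at T0 and 145, 183 and 184 RPM at T2 (3.58, SE 0.40). In none of the 3 did the time points overlap, and the differences between their log2 changes were within 1 SE of NTGL. YSGV had 84.6, 71.4 and 60.3 RPM at T0 and 795, 919 and 834 RPM at T2 (3.57, SE 0.23). FTGL and NTGL started low, after log2 changes of −1.30 and −1.05 in the shutoff. Both ended lower than YSGV, so the order by change was not the order by level.

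Of the 6 members that did not pass the test, 5 had Leu5. FSGL had 4.46, 13.0 and 3.70 RPM at T0 and 4.69, 2.06 and 1.46 RPM at T2, and the 2 time points overlapped (log2 change −1.32, SE 0.68, adjusted p = 0.057, edgeR, and 1.57 with TMM scaling, which moves the median of all variants by 2.88). WSGL had 25.5, 20.6 and 21.4 RPM at T0 and 20.7, 19.8 and 21.6 RPM at T2 (−0.12, SE 0.66, adjusted p = 0.867). STGL had 46.9, 55.2 and 41.2 RPM at T0 and 28.4, 71.3 and 42.1 RPM at T2 (−0.10, SE 0.53, adjusted p = 0.852). In WSGL and STGL too the levels of the time points overlapped, and both were above 0 with the other scalings. The others were KSGL (0.99, SE 0.59), YTGL (0.85, SE 0.53) and the only one without Leu5, DSGM (1.37, SE 0.70, adjusted p = 0.0549). DSGM was at −1.43 when counted from T-1, before its drop during the shutoff. FSGV was the lowest member that passed (0.84, SE 0.37, adjusted p = 0.0248), and its call was lost without screen 1 (adjusted p = 0.0828) or screen 2 (adjusted p = 0.175).

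Ser3 was compared with Thr3 within each pair by limma on 1 log2 difference per screen. In glucose Thr3 was higher in 7 of 80 pairs and lower in 6, compared with 18.4% and 7.34% of all pairs. The count of lower pairs was thus near the library share. The median difference was −0.09 among members and 0.25 over the library. FTGL was above FSGL by 4.15, 6.52 and 4.80 in the 3 screens, a mean of 5.16 (95% CI 3.85 to 6.47, adjusted p = 0.00201, limma). WTGL was above WSGL by 2.68 (95% CI 1.60 to 3.77, adjusted p = 0.00831), a call that was lost without screen 2. The aromatic residues at position 2 did not share a direction beside Leu5, since YTGL was at −1.43 against YSGL (95% CI −2.46 to −0.40, adjusted p = 0.0537). STGL was below SSGL, at −2.91 (95% CI −4.07 to −1.75, adjusted p = 0.00782). The other higher Thr3 forms were CTGI, KTGL, FTGV, DTGL and DTGI, by 1.34 to 1.64, and the other lower ones were ETGI, NTGI, WTGI, ETGM and YTGV, by −2.01 to −1.39. For the human tail the difference was −0.22 (95% CI −1.16 to 0.71) and for the yeast tail −0.43 (95% CI −1.33 to 0.46), and neither passed the test. Leaving out screen 1, 2 or 3 gave 2, 1 and 5 pairs in each direction.

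Exchange of the position 5 residue gave 240 pairs of members with equal positions 2 to 4. In glucose the first named residue was higher in 35 and lower in 24 of them by limma, compared with 30.5% and 12.8% of all such pairs in the library. Among Ser3 members Leu5 was below Val5 in 8 of 20 pairs and above in 0 (median −0.72), while over all residues at positions 2 and 4 it was below in 13.3% of 400 Ser3 pairs and above in 17.8% (median 0.05). It was below Ile5 in 6 of 20 Ser3 pairs and below Met5 in 6 of 20, compared with 29.8% and 51.3% of the 400. Among Thr3 members Leu5 was below Val5 in 3 of 20 pairs and above it in 2 (median −0.03), compared with 34% and 5.5% of 400 Thr3 pairs. Whether Ser3 and Thr3 members differ in this respect, or members from the library, was not tested. The largest differences were in Phe2, Trp2 and Ser2 members. FSGM was above FSGL by 4.80 (95% CI 3.68 to 5.91, adjusted p = 0.00137), WSGL was below WSGV at −3.29 (95% CI −3.99 to −2.58, adjusted p = 0.00125), and STGL was below STGV at −2.99 (95% CI −3.83 to −2.15, adjusted p = 0.00206). Within the human context ASGI was below ASGV at −0.85 (95% CI −1.46 to −0.24, adjusted p = 0.0380). The differences of ASGM from ASGV (−0.24, 95% CI −0.95 to 0.46) and of ASGL from ASGV (−0.44, 95% CI −1.28 to 0.41) did not pass the test. Leaving out screen 1, 2 or 3 gave 22, 20 and 20 higher pairs and 10, 16 and 19 lower ones.

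Position 2 was compared with Ala2 in 152 pairs. In glucose 1 was higher and 10 were lower than Ala2, compared with 15.4% and 8.01% of all such pairs. The count of lower pairs was thus near the library share. The higher one was FTGL, by 1.79 (95% CI 0.79 to 2.79, adjusted p = 0.0284, limma). The lower ones included FSGL (−4.05, 95% CI −5.20 to −2.90, adjusted p = 0.00425), WSGL (−2.86), FSGV (−2.33), STGL (−2.17) and KSGL (−1.75). Counted from T0, Phe2 was thus at both ends, above Ala2 with Thr3 and Leu5 and below it with Ser3 and Leu5 or Val5. FTGL had already changed by −1.30 in the shutoff (adjusted p = 1.1e-07, edgeR), compared with 0.13 for ATGL. These pairs were not compared from T-1. Leaving out screen 1, 2 or 3 gave 0 higher pairs each time and 3, 2 and 4 lower ones.

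Gly4 was next set against each other residue at position 4, in 3040 pairs. In glucose the Gly4 member was higher in 1580 and lower in 58, compared with 36.4% and 8.32% when all residues at position 5 were included. Among Ser3 members Gly4 was higher than Glu4 in 80 of 80 pairs, than Asp4 in 72, than Lys4 in 73 and than Pro4 in 72. It was higher than Ala4 in 56 and lower in 2 (median 2.28). Large hydrophobic residues came nearest. Gly4 was higher than Leu4 in 4 of 80 pairs and lower in 8 (median 0.20), and higher than Phe4 in 7 and lower in 5 (median 0.30). In the human context ASGV exceeded ASAV by 4.34 (95% CI 2.72 to 5.96, adjusted p = 0.00224, limma) and ASYV by 1.96 (95% CI 0.96 to 2.96, adjusted p = 0.00900). Its difference from ASLV was 0.86 (95% CI −0.16 to 1.88, adjusted p = 0.146). Leaving out screen 1, 2 or 3 gave 25, 28 and 47 lower pairs.

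With LIMK1 induced in galactose, the members started as in glucose. From T0 to T1, 154 of 160 members rose by edgeR (25.9% of the library) and none fell, also at an unadjusted p of 0.05 (64.9% of the library fell). Without screen 1, 1 Ser3 member was called below 0. The median log2 change was 2.23. From T1 to T2, 78 of 80 Thr3 members rose, compared with 10.3% of the library, with a median of 1.11. In the same interval 65 of 80 Ser3 members fell, compared with 73% of the library, with a median of −0.95, although with TMM scaling 31 Ser3 members were above 0 and 1 was below. Of the 15 Ser3 members that did not pass the test 11 had Met5, and CSGM (0.17), ISGM (0.10) and WSGM (0.08) had log2 changes above 0. From T2 to T3, 79 Ser3 members fell, compared with 19.9% of the library, with a median of −1.53. In that interval 68 Thr3 members rose and 2 fell, compared with 4.33% of the library rising. Those that fell were GTGV (−0.32) and GTGL (−0.41), and none fell with TMM scaling or without screen 1 or screen 3. From T1 to T3 all 80 Ser3 members lost reads in every screen, and 77 Thr3 members gained them in every screen (library shares not given here). A loss in galactose was common, since 73% of the library fell from T1 to T2.

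To set both media against each other, the log2 change between T1 and T3 in glucose was subtracted from that in galactose, and the result is called the LIMK1 effect. The change of sugar is part of it and cannot be told apart from LIMK1, so Thr3 values are given beside those of Ser3. All 80 Ser3 members were called below 0 by edgeR, compared with 16.9% of all Ser3 variants and 9.89% of the library. The library shares include variants that had already fallen in glucose (70% of the library from T0 to T2). Ser3 members are set against Ala4, Ser4 and Tyr4 partners below, and most of those pairs were not called. For the Ser3 members the following values hold. Their values ran from −4.92 to −1.85 with a median of −3.66, compared with −0.67 over the library. All were below 0 in every screen (library share not given here). Of the 80 Thr3 members 3 were below 0 and 2 above, compared with 2.84% of Thr3 variants below and 3.57% of the library above 0. Their median was 0.11. In each screen the highest Ser3 value (−1.45, −1.96 and −1.66) was lower than the lowest Thr3 value (−1.08, −1.87 and −1.48), so that the 2 sets did not overlap. Members made up 24 of the 100 lowest values of the library. With DESeq2 size factors 73 Ser3 members were called below 0 and with its Wald test 77.

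The human tail shows the course. ASGV had 355, 369 and 295 RPM at T1 in galactose, 207, 206 and 227 RPM at T2 and 78.3, 90.0 and 86.9 RPM at T3. ATGV had 283, 263 and 224 RPM at T1, 704, 574 and 452 RPM at T2 and 815, 789 and 602 RPM at T3. In glucose ASGV went from 445, 315 and 234 RPM at T1 to 847, 707 and 558 RPM at T3. From T1 on in galactose, ASGV lost reads at every step with no overlap between time points. ATGV gained them in every screen, with T2 and T3 overlapping. The LIMK1 effect was −3.11 for ASGV (SE 0.20, adjusted p = 4.2e-53, edgeR; −3.11, −3.20 and −3.02 in the screens) and −0.07 for ATGV (SE 0.18, adjusted p = 0.812). It was −3.73 for RSGV (SE 0.20, adjusted p = 2.9e-74) and 0.00 for RTGV (SE 0.15), −3.41 for ASGM (SE 0.18) and 0.42 for ATGM (adjusted p = 0.0888).

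The Ser3 members differed in the size of the effect. The lowest were DSGI (−4.92, SE 0.37, adjusted p = 2.6e-38, edgeR), RSGL (−4.89, SE 0.36), GSGL (−4.66, SE 0.63), ASGL (−4.63, SE 0.22) and PSGL (−4.53, SE 0.64). DSGI had 72.7, 102 and 118 RPM at T1 in galactose and 2.67, 13.3 and 9.31 RPM at T3. RSGL had 211, 98.4 and 87.3 RPM at T1 and 9.41, 11.9 and 7.51 RPM at T3. The SEs of these 5 overlap, so their order is not settled. The highest were CSGM (−1.85, SE 0.25, adjusted p = 2.2e-12), WSGM (−1.87, SE 0.21, adjusted p = 3.7e-18) and ISGM (−2.13, SE 0.16, adjusted p = 7.1e-40), and with DESeq2 size factors these 3 were not called. CSGM had 160, 111 and 130 RPM at T1 in galactose and 123, 78.8 and 115 RPM at T3, and these overlapped. It had 191, 83.4 and 114 RPM at T1 in glucose and 402, 247 and 414 RPM at T3, with no overlap. FSGL (−3.80, SE 0.90, adjusted p = 3.0e-04) rested on 7, 31 and 4 reads at T3 in galactose and was not called without screen 1 (adjusted p = 0.0866).

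The 3 Thr3 members called below 0, a share near the 2.84% of all Thr3 variants, were all of the Gly2 series. GTGV had 277, 304 and 281 RPM at T1 in galactose, 379, 344 and 406 RPM at T2 and 311, 286 and 303 RPM at T3. In glucose it went from 201, 194 and 167 RPM at T1 to 479, 668 and 500 RPM at T3. Its levels in galactose at T1 and T3 overlapped, and those in glucose did not. The LIMK1 effect of GTGV was −1.48 (SE 0.20, adjusted p = 6.1e-12, edgeR). It was −1.12 with TMM scaling (adjusted p = 0.109), −0.64 with DESeq2 size factors (adjusted p = 0.558) and −0.64 with its Wald test (adjusted p = 0.325), none of which passed the test. GTGL was at −0.82 (SE 0.26, adjusted p = 0.0142) and GTGI at −0.60 (SE 0.18, adjusted p = 0.00739), and with DESeq2 size factors they were at 0.01 and 0.24. The call of GTGL was lost without any 1 of the screens and that of GTGI without screen 2 or screen 3, and GTGI ranged over 0.15, −0.65 and −1.30 in the screens. GTGM, the remaining member of the series, was at 0.10 (SE 0.37). The members above 0, RTGM (0.53, SE 0.16, adjusted p = 0.00743) and CTGM (0.47, SE 0.17, adjusted p = 0.0394), were singled out after their values were seen and were each below 0 in screen 2.

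Within pairs, Thr3 was above Ser3 in the LIMK1 effect in all 80 pairs by limma and below in none, compared with 9.4% and 0.237% of all pairs. The median difference was 3.74, compared with 0.58 over the library. The sign was the same in every screen for all 80 (library share not given here). The differences ran from 2.15 for FTGI and FSGI (95% CI 1.06 to 3.25, adjusted p = 0.0425) to 5.09 for DTGI and DSGI (95% CI 3.70 to 6.48, adjusted p = 0.0242). ATGV was above ASGV by 3.52, 2.84 and 2.75 in the screens, a mean of 3.04 (95% CI 1.89 to 4.19, adjusted p = 0.0245). GTGV was above GSGV by 2.74 (95% CI 1.45 to 4.02, adjusted p = 0.0359), although both were below 0. Without any 1 of the 3 screens limma called 0 of the 80 pairs.

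By position 5, the median LIMK1 effect of Ser3 members was −4.24 for Leu5, −3.72 for Val5, −3.50 for Ile5 and −2.99 for Met5. That of Thr3 members was 0.02, −0.04, 0.06 and 0.35 in the same order. Limma called 0 of the 240 pairs and 0% of the library. At an unadjusted p of 0.05 (library share not given here) 47 pairs passed, of which 44 were Ser3 and 3 were Thr3. Met5 was above Leu5 in value in all 20 Ser3 pairs, by a median of 1.25, and 13 of these passed the unadjusted test. ASGL was below ASGV at −1.53 (95% CI −2.39 to −0.67, adjusted p = 0.110), and CSGM was above CSGL by 1.84 (95% CI 1.07 to 2.60, adjusted p = 0.0930). The difference of ASGM from ASGV was −0.29 (95% CI −0.99 to 0.40).

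By position 2, the mean LIMK1 effect over the 4 Ser3 members was lowest for Asp2 (−4.48, SD 0.69 over the screens), Gly2 (−4.35, SD 0.59) and Val2 (−4.06, SD 0.11). It was highest for Trp2 (−2.66, SD 0.50), Phe2 (−2.88, SD 0.28) and Cys2 (−2.95, SD 0.19), and it was −3.65 for Ala2 (SD 0.11). The neighbouring residues in this order do not differ beyond their spread. Among Thr3 members Gly2 was the lowest (−0.70, SD 0.39), and the other 19 residues lay between −0.03 and 0.24. Limma called 0 of 152 differences from Ala2 and 0% of the library, and 12 passed an unadjusted p of 0.05 (library share not given here). These included CSGM (1.55, 95% CI 0.43 to 2.68), DSGI (−1.51, 95% CI −2.63 to −0.39) and GTGV (−1.40, 95% CI −2.41 to −0.40), with adjusted p-values of 0.314, 0.315 and 0.313.

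Against other residues at position 4, the Gly4 members had the lower LIMK1 effect in 757 of 3040 pairs and the higher in 29, compared with 13.5% and 1.4% when all residues at position 5 were included. Of the 757, 756 were Ser3 pairs. Ser3 Gly4 members were below Phe4 in 76 of 80 pairs (median −3.32), below Pro4 in 73 (median −3.84) and below Leu4 in 67 (median −3.09). They were below Ala4 in 15 (median −0.66), below Ser4 in 22 (median −1.09) and below Tyr4 in 5. Most Pro4 and Ala4 partners of Ser3 members were already lower than Gly4 in glucose, as given above. For such partners these counts therefore show neither resistance to LIMK1 nor likeness to Gly4. ASGV was below ASLV at −2.92 (95% CI −4.09 to −1.76, adjusted p = 0.0175, limma), whereas its difference from ASAV was −0.22 (95% CI −2.72 to 2.29). In the Thr3 pairs Gly4 was above Tyr4 in 22 of 80 (median 1.38), and ATGV was above ATYV by 2.42 (95% CI 0.99 to 3.84, adjusted p = 0.0456). Without screen 1 or screen 2 limma called 0 of these pairs in either direction. The LIMK1 effect between T2 and T3 was also compared with that between T1 and T2. There edgeR called 0 members and 0% of the library, with 7 members at an unadjusted p of 0.05 (library share not given here).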

How the data were processed

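The deposited values were raw counts of sequencing reads per variant, 1 table per screen, which the authors made by PCR of the variable region with barcoded primers, sequencing and counting the reads of each 12-base variant. The methods name Microsoft Excel for processing these data, and the program that assigned reads to variants is not given in the sources used here. The primers held random bases, and whether these were used to collapse duplicates is not stated, so PCR reads need not be separate molecules. All 24 libraries were used, in the groups given by the labels. Counts were tested with edgeR 4.0.16 (quasi-likelihood, total reads as library size) in R 4.3.3. Screen was a block for changes between 2 time points. For the LIMK1 effect and its comparison between intervals, the culture within a screen (screen and medium) was the block. Pairs of variants were tested with limma 3.58.1 on 1 log2 difference per screen after adding 0.5 reads. P-values were adjusted by Benjamini-Hochberg over the whole library, with a threshold of 0.05, two-sided. Correlations of deviations within screens (T1 and T3 in glucose) were 0.312, 0.242 and 0.447, those of T0 and T2 were 0.136, −0.0888 and −0.0411, and the screen number marks 1 culture that was divided. Alternatives were TMM and DESeq2 1.42.0 size factors, its Wald test, scaling to charged residues at position 5, no block, each screen left out, 5 reads added, a mean of at least 50 reads, and 1 fit over all libraries. Counting glucose changes from T-1 was added after seeing the data. Both methods were tested on simulated data: edgeR recovered 34% of log2 changes of 2 and 100% of those of 4 in the LIMK1 effect over 16000 variants. In the same effect limma recovered 22% of differences of 2 and 69% of those of 4 between Thr3 and Ser3. For differences from Ala2 it recovered 23.2% and 61.1%, so pairs that were not called may still differ. Members and lists were chosen with earlier results of these data known. Variants named were the Ala2 members, the yeast pair, the 4 highest and 4 lowest in glucose, those that did not rise, the 5 lowest and 5 highest LIMK1 effects that were called with 1 sign in every screen, Thr3 members called below 0, and partners of these. Fractions of the pool are relative, and the plasmid pool was not analysed here.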

Additional observations from a re-analysis of the deposited data

Results flagged for a closer look

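These results differed between the media, by a test of the difference itself (medium by time, edgeR). All 80 Ser3 members had a LIMK1 effect below 0. Among Thr3 members the effect was −1.48 for GTGV, −0.82 for GTGL and −0.60 for GTGI, and it was 0.53 for RTGM and 0.47 for CTGM. The last 2 were below 0 in screen 2. With TMM factors no Thr3 member was called below or above 0. The 3 calls below 0 were near the share among all Thr3 variants (2.84%).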

How the results depend on the processing

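The count of Ser3 members with a LIMK1 effect below 0 was 73 to 80 in every alternative. Other counts moved. With TMM factors, 4 members rose during the shutoff, 0 fell in either glucose interval before T2, 31 Ser3 members were above 0 and 1 below from T1 to T2 in galactose, 0 Thr3 members fell from T2 to T3, and 0 Thr3 members had a LIMK1 effect below or above 0. With no replicate block, 0 rose during the shutoff, 0 fell from T1 to T2 and 2 rose from T2 to T3 in glucose, while from T2 to T3 in galactose 50 Ser3 members fell, 2 Thr3 members rose and 0 fell, and 1 Thr3 LIMK1 effect was below and 0 above 0. Thr3 LIMK1 effects below and above 0 numbered 0 and 0 with DESeq2 size factors, 1 and 0 with charged residues, 0 and 7 with the Wald test, and 1 and 0 with one fit over all libraries. In glucose from T0 to T2, 1 member fell with one fit and 2 when counted from T-1. Gly4 members with the higher LIMK1 effect numbered 49 with 5 reads added and 46 with the read filter.

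Leaving out each screen gave 0 to 4 members rising in the shutoff, 0 to 1 falling from T0 to T1, from T1 to T2 and from T0 to T2 in glucose, 0 to 76 rising from T2 to T3, 0 to 1 Ser3 members falling from T0 to T1 in galactose, 0 to 2 Thr3 members falling from T2 to T3, and 1 to 2 Thr3 LIMK1 effects below and 0 to 1 above 0. For pairs it gave 1 to 5 higher and 1 to 5 lower for Thr3 in glucose, 0 to 0 for Thr3 in the LIMK1 effect, 25 to 47 lower for Gly4 in glucose, 0 to 22 higher and 0 to 665 lower for Gly4 in the LIMK1 effect, 20 to 22 higher and 10 to 19 lower at position 5, and 0 to 0 higher and 2 to 4 lower at position 2. Fewer screens leave fewer degrees of freedom.

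Signs turned for values that were not called and for GTGL and GTGI, which were called below 0. In glucose, with TMM, DESeq2 size factors, charged residues and the Wald test in that order, FSGL was at 1.57, 2.68, 3.07 and 2.70, WSGL at 2.77, 3.88, 4.27 and 3.88, and STGL at 2.78, 3.90, 4.29 and 3.90. STGL was at −0.345 to 0.202 when 1 screen was left out, and DSGM at −1.43 from T-1. For the LIMK1 effect ATGV was at 0.28 with TMM, 0.76 with size factors and with the Wald test, 0.0101 with charged residues and −0.314 to 0.0740 when 1 screen was left out. NTGL was at 0.16 with TMM and 0.65 with size factors and the Wald test, and STGL at 0.19 and 0.67. GTGL was at 0.0111 and GTGI at 0.24 with size factors and the Wald test. Leaving out 1 screen gave −0.301 to 0.340 for ATGI, −0.201 to 0.148 for RTGV, −0.0112 to 0.675 for YTGL, −0.0212 to 0.308 for FTGL and −0.530 to 0.147 for STGL. The scalings also moved the median of all variants. In glucose it moved by 2.88 with TMM, 3.99 with DESeq2 size factors and 4.38 with charged residues. In the LIMK1 effect it moved by 0.35, 0.83 and 0.08 in the same order. Why signs turned when 1 screen was left out or when counted from T-1 was not tested.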
